A study of Homo sapiens with 2 samples.

Results

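MALAT1, NEAT1, TUG1, GAS5 and SNHG1, 5 long noncoding RNAs, were examined in HEK-293T, a line derived from human embryonic kidney, in the absence and presence of the small molecule ABA. Each RNA was represented by the transcript A positions that the count files listed within a fixed hg19 interval. These came to 3195 of 4079392 listed positions in the library without ABA and 2880 of 3518802 in the library with ABA. Cells of both libraries carried the CIRTS-hADAR biosensor, an engineered RNA-binding system joined to a human ADAR sequence, so the 2 conditions differed by ABA as the labels give it. Each condition had 1 library of enriched mRNA, and no difference between them has a replicate check. How the biosensor was brought into the cells, the dose of ABA and its duration are not given in the sources used here. The files hold base counts per position without gene names, so the cell line was not checked against markers.

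ADAR enzymes turn adenosine in double-stranded RNA into inosine, which is read as G. An A-to-G rate here is the G reads as a percentage of A plus G reads, summed over the listed positions of an RNA, and reads of C or T at these positions serve as background. Intervals are at 95%, exact unless stated, and cover counting error alone. A read covers several positions, so they are too narrow to that extent. The p-values come from two-sided Fisher's exact tests and compare the 2 libraries, not the conditions.

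The 5 RNAs differ in where they are known to reside. MALAT1 is retained in the nucleus, where it gathers at splicing speckles. NEAT1 is the RNA scaffold of paraspeckles, nuclear bodies that need its long form, while a short form shares its 5' end. TUG1 is found in the nucleus and in the cytoplasm. GAS5 and SNHG1 are host genes, whose introns hold small nucleolar RNAs (snoRNAs) that guide the modification of ribosomal RNA, and whose spliced RNA is exported and turned over quickly. The libraries were not fractionated, so residence in a compartment was not measured. RefSeq (GRCh38.p14) gives 4 of the 5 as lncRNA and gives TUG1 the type protein_coding.

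The annotated beginnings of these RNAs are shown first, since no position near the 5' end of any interval was listed. The sequences are the first 50 transcribed bases from RefSeq, build GRCh38.p14, 5' to 3' on the transcript strand. Of the 5 symbols 4 matched, all but NEAT1, and MALAT1 has 2 annotated starts 1307 nt apart, at bases 65497738 and 65499045 of chromosome 11. Capitals mark the longest run of C and T bases.
MALAT1, upstream start: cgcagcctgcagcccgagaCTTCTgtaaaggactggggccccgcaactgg
MALAT1, downstream start: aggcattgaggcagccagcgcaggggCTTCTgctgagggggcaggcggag
TUG1: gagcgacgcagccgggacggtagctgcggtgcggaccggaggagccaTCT
GAS5: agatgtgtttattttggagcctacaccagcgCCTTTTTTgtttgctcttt
SNHG1: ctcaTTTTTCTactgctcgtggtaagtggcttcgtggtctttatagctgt
The run was 8 bases in GAS5 and 7 in SNHG1, against 5 in both MALAT1 starts and 3 in TUG1. The TUG1 run ended at base 50, the last one shown, so it may be longer. Over the first 50 transcribed bases of all 35116 entries of the table, 17.1% held a run of at least 8 bases and 26.8% one of at least 7. Runs of this kind at the very start are a known feature of snoRNA host RNAs. In the annotated GAS5 start the run began at base 32, and in SNHG1 at base 5. Neither marked run was thus at the very start of its annotated sequence.

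A listed position has at least 6 reads, the lowest depth found in the files, so unlisted bases may carry fewer reads or none. The intervals were not matched to an annotation of their build, and their lengths differ from the RefSeq genes in GRCh38.p14 for MALAT1 (8708 against 8779 nt), TUG1 (9748 against 10131 nt), GAS5 (4087 against 5145 nt) and SNHG1 (3927 against 3908 nt). Distances are therefore counted from the 5' end of the interval, which need not be the annotated start shown above. The MALAT1 interval (chromosome 11, 65265233 to 65273940, plus strand, hg19) had its first listed position 1459 nt from its 5' end. In the NEAT1 interval (chromosome 11, 65190269 to 65213011, plus) listed positions ran from 662 to 3172 nt, and the remaining 19571 nt held none. TUG1 (chromosome 22, 31365634 to 31375381, plus) began at 331 nt. GAS5 (chromosome 1, 173833039 to 173837125, minus) began at 980 nt and SNHG1 (chromosome 11, 62619460 to 62623386, minus) at 715 nt. Listed positions of both host RNAs went on almost to the 3' end, to within 5 and 15 nt. The opposite strand of all 5 intervals had 0 listed positions in either library.

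The listed positions formed long stretches in MALAT1 and part of TUG1, and mostly short ones elsewhere. Joining positions at most 100 nt apart gave 9 stretches in MALAT1 with a median span of 420 nt, and 10 in TUG1 with a median of 98 nt, whose longest ran 3674 nt. NEAT1 had 10 stretches with a median span of 43 nt and none over 184 nt. GAS5 and SNHG1 had 9 stretches each, with median spans of 51 and 45 nt and 1 long stretch at the 3' end, of 860 nt in GAS5 and 678 nt in SNHG1. The stretches covered 60.1% of the MALAT1 interval and 70.5% of TUG1, against 33.4% of GAS5, 26.3% of SNHG1 and 2.50% of NEAT1. An hg19 annotation was not used here, so the stretches were not matched to exons.

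**Figure D1:**
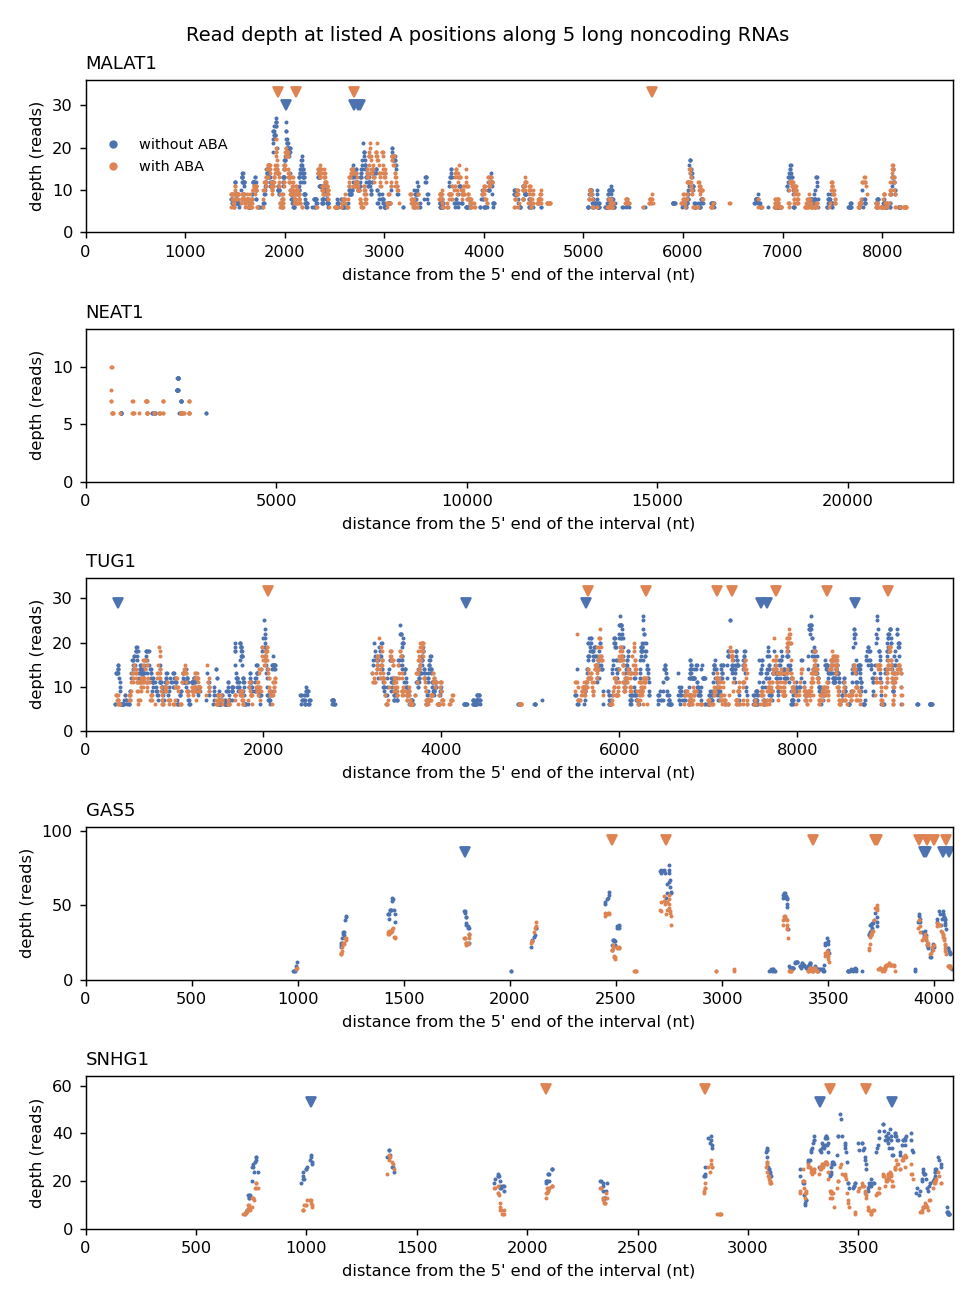
Read depth (y axis, reads) at each listed A position against its distance from the 5' end of the interval (x axis, nt), 1 panel per RNA, blue without ABA and orange with ABA. Triangles mark positions with at least 1 G read in that library. NEAT1 is listed only up to 3172 nt, MALAT1 and TUG1 have the longest stretches, and GAS5 and SNHG1 in short ones that end in a long 3' stretch.

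Depth set how much each RNA could show. GAS5 was the deepest per listed position, with a median of 27 reads without ABA and 24 with ABA and up to 77 and 57 reads. SNHG1 had medians of 25 and 17 reads. TUG1 had 12 and 10, MALAT1 8 and 9, and NEAT1 7 and 6. The median of all nuclear positions, those of chromosomes 1 to 22 and X, was 10 in both libraries. Since positions under 6 reads are missing, medians near this limit overstate the depth of an RNA. The order GAS5, SNHG1, TUG1, MALAT1, NEAT1 held without ABA and with ABA.

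GAS5, SNHG1 and TUG1 were shallower in the ABA library relative to nuclear reads, and MALAT1 was slightly deeper. The comparison used shared positions alone, those listed in each library, for the RNA and for the nuclear total, which came to 41115403 base reads without ABA and 40028599 with ABA. Over the 244 shared SNHG1 positions depth summed to 161 per 1000000 of these nuclear base reads in the untreated library and 108 in the ABA library, or 0.675 times (0.649 to 0.701). Relative depth was lower with ABA at all but 15 of these positions. GAS5 had 158 and 124, a ratio of 0.783 (0.755 to 0.813), and was deeper with ABA at 27 of 184 positions. TUG1 had 379.9 and 326, a ratio of 0.859 (0.839 to 0.879). MALAT1 had 204.0 and 212, a ratio of 1.04 (1.01 to 1.07). NEAT1 had 7 positions in both libraries, with 47 and 42 base reads.

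Blocks show how usual such ratios were. A block joins neighbouring positions at most 100 nt apart and has at least 200 reads in each library. Of 45236 nuclear blocks, 2.73% had a lower depth ratio than SNHG1 as a whole and 10.5% a lower one than GAS5. For TUG1 it was 20.8% and for MALAT1 56.7%, so the MALAT1 ratio was near the middle of all blocks. These shares set whole RNAs beside single blocks, which can have as few as 200 reads, and are not ranks among RNAs of like depth. A ratio under 0.8 was found in 12.5% of all blocks. It was found in 3 of 4 SNHG1 blocks, 5 of 7 GAS5 blocks, 0 of 3 TUG1 blocks and 0 of 7 MALAT1 blocks, whose blocks share 1 RNA and are not independent. The ratio over SNHG1 blocks ran from 0.642 to 0.863. In GAS5 6 of 7 blocks lay between 0.697 and 0.819, and the block from 2003 to 2123 nt had 1.10. With 1 library per condition these ratios have no test, and in bulk RNA fewer cells with an RNA and less RNA per cell cannot be told apart.

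**Figure D2:**
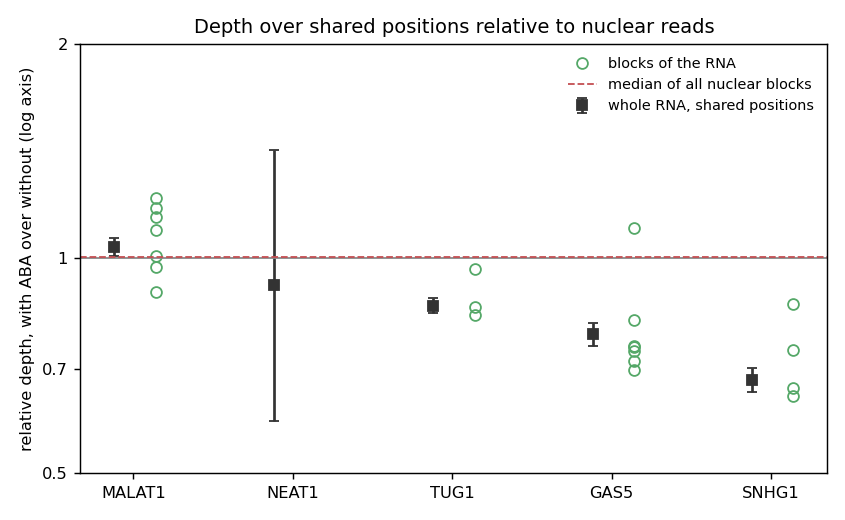
Depth over positions listed in each library, relative to the nuclear base reads at such positions, with ABA over without ABA (y axis, log scale), per RNA. Squares give the whole RNA with its 95% counting interval, open circles its blocks, and the dashed line the median of all nuclear blocks; SNHG1 is lowest at 0.675 and MALAT1 lies at 1.04.

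MALAT1 carried as few A-to-G mismatches with ABA as without. There were 4 G reads of 10310 without ABA (0.0388%, 0.0106 to 0.0993) and 4 of 10595 in the ABA library (0.0378%, 0.0103 to 0.0966). The ratio was 0.973 (0.181 to 5.22; exact p = 1). These few reads set a wide limit: from 4 reads without ABA, 13 with ABA would have been needed for an unadjusted exact p under 0.05, a ratio of 3.16. All nuclear positions together stood at 0.0386% and 0.0776%, 2.01 times as high with ABA (1.97 to 2.05). The MALAT1 ratio was 0.484 of that of the other nuclear positions (0.121 to 1.94, normal approximation), so a difference from it was not detectable at this depth. Reads of C or T, the background, numbered 2 without ABA and 0 with ABA, where 3 reads, the limit taken for a count of 0, would make 0.0283% and the exact interval reaches 0.0348%.

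G reads in MALAT1 lay mostly in the long 5' stretch. Of 7 positions with a G read in either library, 6 lay between 1459 and 3438 nt, a stretch with 46.2% of the listed positions. That stretch held 6108 of the 10310 A plus G reads without ABA and 5775 of the 10595 with ABA, and the split has no test. The position with most G reads was 65267929, where 1 of 14 untreated reads and 1 of 11 ABA reads were G (9.09%, 0.230 to 41.3). It was the only position of the 5 RNAs with a G read in both libraries. Position 65267250 had a G in 1 of 24 untreated reads and in 0 of the ABA reads, and position 65267169 had 0 of 10 and 1 of 14. None of these shares can be told from another at such depths.

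NEAT1 gave no A-to-G read in either library. Its 40 listed positions without ABA held 289 reads, in which a count of 0, taken as under 3 reads, allows a rate of up to 1.04% (exact interval 0 to 1.27%). Its 63 positions with ABA held 405 reads, which allow up to 0.741% by the same limit (exact interval 0 to 0.907%). At the nuclear rates of positions of like depth, 0.0725 and 0.213 G reads would have been expected. The RNA was too shallow to show a rate like that of other transcripts, and no read of C or T was found either.

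TUG1 had the most positions of the 5 and an untreated rate close to that of all nuclear positions. There were 7 G reads of 19168 in the untreated library (0.0365%, 0.0147 to 0.0752) and 8 of 13632 with ABA (0.0587%, 0.0253 to 0.116). The ratio was 1.61 (0.509 to 5.21; exact p = 0.43), which was 0.80 of the nuclear ratio (0.290 to 2.21, normal approximation). The difference between libraries was within counting error. The background of C or T reads was 2 and 1.

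The TUG1 G reads stood at 14 positions, 11 of them in the stretch from 5503 to 9176 nt that held 54.9% of the listed positions. None had a G read in both libraries. At position 31374277 the untreated library had 2 G in 22 reads (9.09%, 1.12 to 29.2) and the ABA library 0 in 14. Positions 31374653 and 31371285 had no G in 22 and 20 untreated reads, and 1 in 15 and 1 in 14 ABA reads. Only 2 TUG1 positions and 4 MALAT1 positions had 20 reads or more in both libraries, and none of these had a G read.

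By point value, GAS5 had the highest A-to-G rate of the 5 in both libraries. There were 6 G reads of 6942 in the untreated library (0.0864%, 0.0317 to 0.188) and 11 of 5228 with ABA (0.210%, 0.105 to 0.376). These intervals overlapped those of SNHG1, TUG1 and NEAT1 in both libraries, and that of MALAT1 without ABA. The ratio of 2.43 (0.825 to 8.02) did not pass the test (exact p = 0.086), and was 1.21 times the nuclear ratio (0.448 to 3.28, normal approximation). The background was 1 read of C or T in each library. G reads were found at 5 of 243 positions without ABA (2.06%) and at 9 of 219 with ABA (4.11%), against 0.452% and 0.88% of all nuclear positions. GAS5 is deeper than most nuclear positions, and a deeper position has more chances of a G read.

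Depth also goes with the rate itself. Over nuclear positions of 6 to under 10 reads the A-to-G rate was 0.0251% without ABA and 0.0521% with ABA, and from 50 reads up it was 0.122% and 0.225%. G reads expected from the nuclear rate of each depth class were therefore set beside those observed, a calculation added after the counts had been seen. In GAS5 4.83 were expected and 6 observed without ABA, and 5.13 were expected and 11 observed with ABA. The observed count was 1.24 times the expected (0.456 to 2.70) without ABA and 2.14 times (1.07 to 3.83) with ABA. Without position 173833406 the second value was 1.57 (0.679 to 3.10), so that its interval no longer lay above 1. For MALAT1, TUG1 and SNHG1 all 6 intervals included 1, with values from 0.655 for MALAT1 with ABA to 1.30 for MALAT1 without ABA.

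The GAS5 mismatches lay mostly in the 3' stretch. From 3223 to 4082 nt there were 5 G reads of 3340 (0.150%, 0.0486 to 0.349) in the untreated library and 9 of 2562 (0.351%, 0.161 to 0.666) with ABA. The 8 other stretches together had 1 of 3602 (0.0278%, 0.000703 to 0.155) and 2 of 2666 (0.0750%, 0.00909 to 0.271). This split was made after the values had been seen and has no test. Of 14 GAS5 positions with a G read 11 lay in the 3' stretch, which held 65.1% of the listed positions, and 0 had a G read in both libraries.

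The GAS5 position with most G reads was 173833406, with no G among 45 reads (0 to 7.87%) in the untreated library and 3 G among 48 (6.25%, 1.31 to 17.2) in the ABA library, with an exact p of 0.24. Position 173833166 went the other way: 2 of its 30 untreated reads were G (6.67%, 0.818 to 22.1), and 0 of its 29 reads after ABA (exact p = 0.49). Position 173834388, among the deepest, had 0 of 55 and 1 of 44 reads. Adjusted over all nuclear positions by Benjamini-Hochberg, the exact p was 1 at each.

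SNHG1, the other host RNA, had fewer G reads than GAS5 at a like depth without ABA, though the intervals of their rates overlapped. There were 4 of 6790 (0.0589%, 0.0161 to 0.151) in the untreated library and 4 of 4374 in the ABA library (0.0914%, 0.0249 to 0.234). The ratio was 1.55 (0.289 to 8.33; exact p = 0.72), which was 0.772 of the nuclear ratio (0.193 to 3.09, normal approximation). The number of G reads was the same in both libraries, out of fewer reads with ABA. Again 1 read of C or T was found in each library.

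The SNHG1 G reads stood at 7 positions, 4 of them in the 3' stretch. At position 62620062 there were 2 G in 32 untreated reads (6.25%, 0.766 to 20.8) and 0 in 26 ABA reads (exact p = 0.4967, adjusted p = 1). Position 62619733 had 1 of 31 reads and 0 of 18, and position 62620580 had 0 of 26 and 1 of 19. In the 3' stretch the rate was 0.0663% without ABA and 0.0717% with ABA, and in the 8 other stretches 0.0442% and 0.126%.

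**Figure D3:**
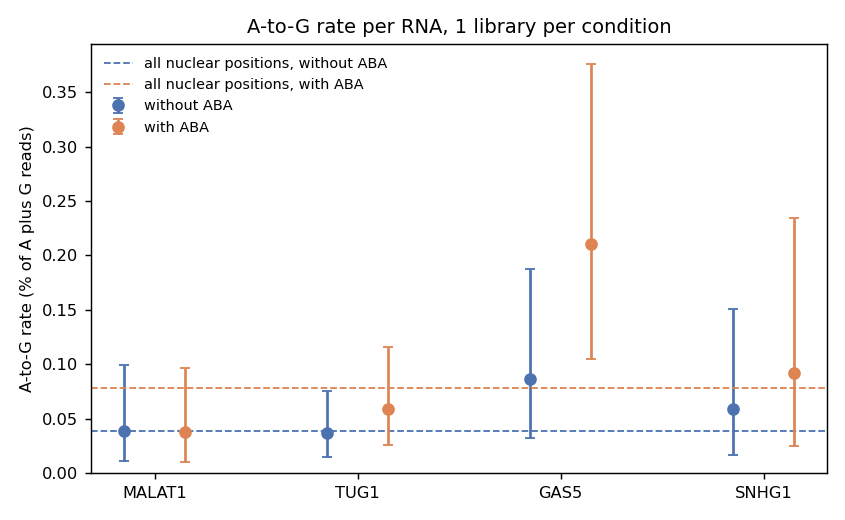
A-to-G rate (y axis, % of A plus G reads) of 4 RNAs without ABA (blue) and with ABA (orange), points with exact 95% intervals, and of all nuclear positions (dashed lines). NEAT1, with 0 G reads of 289 and 405, is left out. Intervals of both libraries overlap in each RNA, and GAS5 with ABA, at 0.210%, has its interval above the nuclear line. That line pools positions of all depths, and GAS5 is deeper than most.

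The nuclear-retained RNAs and the snoRNA hosts were then pooled. MALAT1 and NEAT1 together had 4 G reads of 10599 without ABA and 4 of 11000 with ABA, a ratio of 0.964 (0.180 to 5.17; exact p = 1). GAS5 and SNHG1 together had 10 of 13732 (0.0728%, 0.0349 to 0.134) and 15 of 9602 (0.156%, 0.0875 to 0.257), a ratio of 2.15 (0.902 to 5.34; exact p = 0.067). The second ratio was 2.23 times the first, with an interval from 0.449 to 11.0 (normal approximation). A difference between the 2 kinds of RNA was thus not detectable. The host pair was also deeper than the MALAT1 and NEAT1 pair, with medians of 26 and 19 reads against 8 and 9, and the part of depth in this contrast was not tested.

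Over all 5 RNAs 21 of 43499 untreated reads were G, a rate of 0.0483% (0.0299 to 0.0738). In the ABA library 27 of 34234 were G, a rate of 0.0789% (0.0520 to 0.115). The ratio was 1.63 (0.890 to 3.04; exact p = 0.11), or 0.813 of that of the other nuclear positions (0.459 to 1.44, normal approximation). From 21 reads without ABA, 30 with ABA would have passed an unadjusted p of 0.05. Background reads of C or T numbered 6 (0.0138%, 0.00506 to 0.0300) without ABA and 3 (0.00877%, 0.00181 to 0.0256) with ABA. By point value G was above C and T combined in both libraries. The intervals of G and of the background just overlapped without ABA, and did not overlap with ABA.

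**Figure D4:**
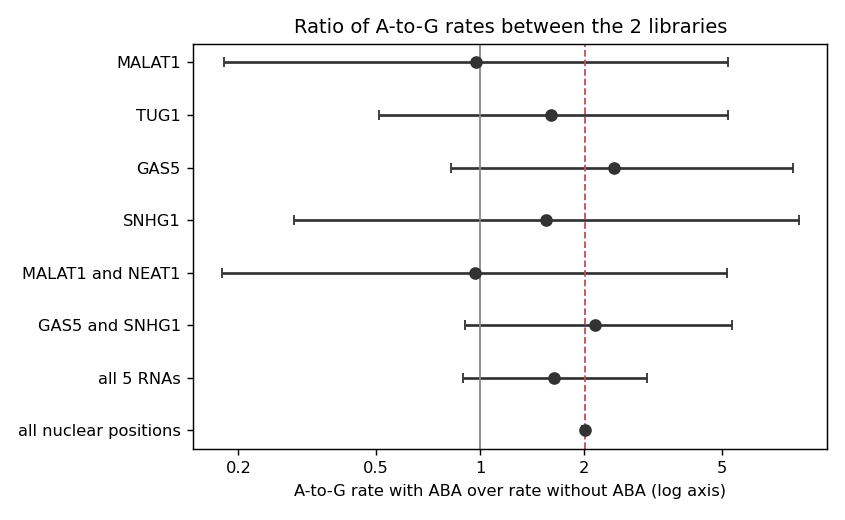
Ratio of the A-to-G rate with ABA to that without ABA (x axis, log scale) for each RNA with G reads, for the pairs, for all 5 RNAs and for all nuclear positions, with exact 95% intervals. The solid line marks equal rates and the dashed line the nuclear ratio of 2.01; every interval of the RNAs includes both lines.

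Single positions and blocks gave no call. Of 359222 nuclear positions with at least 20 reads in each library, 0 passed an adjusted p of 0.05 in the exact test with a change of 10 percentage points or more, 0% of those tested, and 65 had an unadjusted p under 0.05. Of these positions 237 belonged to the 5 RNAs, 132 to GAS5 and 99 to SNHG1, and 0 of them had an unadjusted p under 0.05. None of the 237 changed by 10 points or more, so none met the size limit of a call. A higher share with ABA was found at 7 of the 237, all in GAS5, against 3.3% of all positions tested, and a lower one at 5, of which 4 were in GAS5 and 1 in SNHG1, against 1.87% of all positions tested. The block test called 6 of 45236 nuclear blocks (0.0133%) and 0 of 21 in the 5 RNAs, of which 0 had an unadjusted p under 0.05. Of these 21 blocks 7 were higher in the ABA library, 2 were lower, and 12 had no G read in either library. Of all nuclear blocks 27.9% were higher and 13.5% lower in the ABA library. The lowest p among the 21 was that of the GAS5 3' block (exact p = 0.18, adjusted p = 1).

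The mismatches of the 5 RNAs were scattered. They stood at 42 positions, of which 17 had a G read only without ABA, 24 only with ABA and 1 in both libraries. At 37 of the 42 there was 1 G read in all, and the highest count at a position in 1 library was 3. No position of the 5 RNAs had a share of 35% or more, the level taken as variant-like, in either library. G reads were found at 0.563% of the listed positions of the 5 RNAs without ABA and at 0.868% with ABA, close to the 0.452% and 0.88% of all nuclear positions.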

How the data were processed

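Per the file headers, the authors deposited raw counts of reads with each base at A positions (plus strand) and T positions (minus strand), with a single base read cutoff of 5; values are not normalised. Minus-strand counts were complemented. The submitters' processing notes name cutadapt, HISAT2 and hg19 without versions; the base counter and any removal of duplicates are not given in the sources used here. Reads outside A, C, G and T were present at 2 positions of the 5 RNAs and stayed in depth alone.

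The 5 RNAs, intervals and comparisons were chosen with earlier results of these data known. Variant-like positions, whose G share reached 35% in a library, were left out of rates and blocks. The site and block tests were Fisher's exact tests over all nuclear positions or blocks with Benjamini-Hochberg adjustment. Whether they can call changes as small as those seen in the 5 RNAs was not tested. Positions named were the 3 of each RNA with most G reads over both libraries, ties going to the deeper one. Intervals of shares are Clopper-Pearson, ratios have conditional binomial intervals, and those of observed over expected are exact Poisson. Other lncRNAs of the class were not analysed here, as no hg19 annotation was used. Calculations ran in Python 3.11.15 with scipy 1.17.1, pandas 2.3.3 and numpy 2.4.6 (random seed 1), and plots in matplotlib 3.10.9. Alternatives to positions, variant-like limit, coverage, change, test, block gap and depth were run.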

Additional observations from a re-analysis of the deposited data

How the results depend on the processing

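No call was made for any of the 5 RNAs under the alternatives run: 0 positions passed with a coverage minimum of 10 or 50, a change of 5 points or the chi-square test, and 0 blocks with gaps of 50 or 200 nt. The 5-point limit could add no call, since the lowest unadjusted exact p of a tested position of these RNAs was 0.24. Only GAS5 had positions of 50 reads or more, 36 without ABA and 9 with ABA. These alternatives therefore say little about smaller changes. Ratios of A-to-G rates kept their side of 1 and of the threshold where both libraries had G reads. With a coverage minimum of 20, MALAT1 and TUG1 had no G read in either library. SNHG1 then had G reads at 1 position, without ABA alone, the reverse of its main ratio of 1.55. Among the ratios formed, MALAT1 had 0.495 at positions listed in both libraries and 0.5 when thinned to the lower depth, and TUG1 had 2.67 when thinned. Without the position of most G reads, SNHG1 had 3.11, TUG1 2.25 and GAS5 1.77. Relative depth moved when all listed positions were taken, for the RNA and for the nuclear total, to 1.16 for MALAT1, 1.58 for NEAT1, 0.804 for TUG1, 0.851 for GAS5, 0.728 for SNHG1, 1.17 for MALAT1 and NEAT1, 0.790 for GAS5 and SNHG1 and 0.889 for all 5. NEAT1 changed side, from 0.918 at 7 shared positions, and the cause was not tested. Observed over expected G reads without ABA changed side of 1 with the nuclear rate over all depths, to 0.945 for TUG1 and 0.977 for MALAT1 and NEAT1. Without the position of most G reads it did so for MALAT1 (0.976), TUG1 (0.825), SNHG1 (0.637) and MALAT1 and NEAT1 (0.954). The cause was not tested, and each interval included 1. With ABA, GAS5 and SNHG1 together had 1.76 (0.984 to 2.90), 2.01 (1.13 to 3.32) with the nuclear rate over all depths, and 1.41 (0.730 to 2.47) without the position of most G reads. These expected counts were added after the data were seen. No paired analysis was possible because each condition had 1 library. Depth limits all rates: from the 6 to 11 G reads of GAS5 down to the 0 of NEAT1.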
